A study of Mus musculus with 23 samples.

Results

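A set of 7 hormone-related genes, Amh, Amhr2, Inha, Inhba, Inhbb, Fst and Fshr, was followed in testes of CD-1 mice and in cultured fragments of such testes. The 7 genes were chosen by name out of 27466 genes in the count table, and each was found there by its NCBI gene identifier. Wild-type testes were taken in vivo on 6.5 days postpartum (dpp) and, to match the culture times, on 10.5, on 22.5 and on 36.5 dpp. Fragments of 6.5 dpp testes were cultured for 4 days (D4, the match of 10.5 dpp), 16 days (D16, the match of 22.5 dpp) or 30 days (D30, the match of 36.5 dpp) in α-MEM medium with KnockOut serum replacement, gentamicin and retinol, for which no gonadotropin was listed. Some 6.5 dpp tissue was frozen by controlled slow freezing (CSF) and thawed before RNA extraction or before culture to D30, and all other tissue was fresh. Of the 23 libraries, 21 were used. The youngest testes gave 1 fresh and 3 CSF libraries, 10.5 dpp gave 3, 22.5 dpp gave 3 and 36.5 dpp gave 2. D4 gave 3 cultured libraries and D16 gave 2, and to D30 belonged 3 from fresh and 1 from CSF tissue. Each explant library came from pooled fragments whose necrotic centre had been removed, so the cultured RNA stands for the living rim of the fragment. The replicates were described as biological, and where this does not mean separate animals the p-values below measure only the spread between these libraries.

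Anti-Müllerian hormone (AMH) is made by immature Sertoli cells, drives regression of the Müllerian ducts in the male fetus and acts through its own type II receptor, AMHR2, on SMAD proteins. Inhibins pair the alpha subunit (Inha) with a beta subunit (Inhba or Inhbb) and lower pituitary secretion of follicle-stimulating hormone (FSH), whereas activins are dimers of the beta subunits alone and raise it. Follistatin (Fst) binds activins and keeps them from their receptors, and the FSH receptor (Fshr), carried in the testis by Sertoli cells, signals through cyclic AMP. In the testis the AMH level is known to be high before puberty and to fall as Sertoli cells mature.

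The libraries used held 28351546 to 69029328 counts each. Fresh replicate 3 at 6.5 dpp had the same count as fresh replicate 2 in every gene and was counted with it as 1 library. Fresh replicate 1 at 6.5 dpp was set aside because it went against its label: its Spearman correlation over genes was 0.986 with a D16 library and 0.876 to 0.909 with the 6.5 dpp libraries used, which were at 0.958 or more among themselves. In that library Amh stood at 43.3 CPM (the counts of a gene scaled to the total count of its library), Amhr2 at 716, Inha at 340.3, Inhba at 4.16, Inhbb at 212, Fst at 18.7 and Fshr at 39.1 CPM. Results are given below without it, and with it where the call changed, since all comparisons share 1 estimate of the spread. The 16 Sertoli cell markers were present at 6.5 dpp with a summed level of 5501 to 8010.1 CPM, and none of them was at 0 in any group.

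On the build GRCm38, Amh (gene 11705) spans chr10:80805240-80807679 on the plus strand, Amhr2 (110542) chr15:102445002-102454640 on the plus strand, and Fshr (14309) chr17:88984952-89200675 on the minus strand. Inha (16322) spans chr1:75507077-75510366 on the plus strand and Inhbb (16324) chr1:119415463-119422248 on the minus strand. Inhba (16323) spans chr13:16004256-16031609 on the plus strand and overlaps the opposite-strand genes B230303A05Rik and Gm48444. Fst (14313) spans chr13:114452262-114458989 on the minus strand and overlaps the opposite-strand gene Gm47040. The kit keeps the strand, but the strand setting used for counting is not given in the sources used here, so reads of these overlapping genes cannot be told apart from those of Inhba and Fst.

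Windows around a transcript start, from 250 bases before to 50 bases after it, are shown for both receptor genes, since they are the members whose window held 1 of the 5 motifs searched on both strands. The sequences are from the RefSeq table of GRCm38.p6, which held 5 of the 7 genes. The capitals mark AAGGTCA, the site bound by the steroidogenic factor NR5A1 (also called SF-1), in the Amhr2 window (chr15:102445117-102445416, plus strand) and CACGTG, an E box, in the Fshr window (chr17:89200626-89200925, minus strand).
Amhr2: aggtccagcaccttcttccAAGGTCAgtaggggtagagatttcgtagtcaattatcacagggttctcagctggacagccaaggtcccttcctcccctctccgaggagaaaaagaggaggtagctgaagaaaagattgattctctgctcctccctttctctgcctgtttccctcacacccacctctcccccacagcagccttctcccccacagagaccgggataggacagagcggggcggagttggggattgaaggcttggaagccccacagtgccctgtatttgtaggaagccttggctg
Fshr: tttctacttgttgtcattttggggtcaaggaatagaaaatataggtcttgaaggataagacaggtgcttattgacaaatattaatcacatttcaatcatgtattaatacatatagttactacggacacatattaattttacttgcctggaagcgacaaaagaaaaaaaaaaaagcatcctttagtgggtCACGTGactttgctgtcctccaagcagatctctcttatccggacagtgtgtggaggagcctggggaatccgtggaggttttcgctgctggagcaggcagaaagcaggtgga
The Amhr2 match lay at bases -231 to -225 from the transcript start and the Fshr match at bases -61 to -56. AAGGTCA was found in 4.72% of 32851 promoters of this length and CACGTG in 7.15%. The other motifs searched were the cyclic AMP response element TGACGTCA (1.79% of promoters), the GATA site AGATAA (11.2%) and the SOX site AACAAT (10.7%). The Inhbb window held none of the 5 motifs. The windows of Amhr2, Inha and Inhba lie inside the gene spans given above, at the start of a transcript that begins downstream of the first annotated base, so they do not show the sequence before that base. A match is a stretch of letters and not a measured binding site.

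Levels were compared between genes as CPM per kilobase of exon, and within a gene as CPM of the library total. At 6.5 dpp Inha led with 488 CPM per kilobase, ahead of Amh at 325, Amhr2 at 192 and Inhbb at 94.2, with Fshr at 19.8, Inhba at 14.3 and Fst at 2.25 CPM per kilobase. At 36.5 dpp the order was Amhr2 (89.3), Inha (85.0), Inhbb (7.31), Amh (2.46), Fshr (1.46), Fst (0.180) and Inhba (0.0818 CPM per kilobase). At D30 it was Amhr2 (554), Inha (410.2), Inhbb (49.0), Fshr (23.1), Amh (13.3), Fst (5.89) and Inhba (0.800 CPM per kilobase). Amh therefore made up 28.6% of the summed level of the 7 genes at 6.5 dpp, 1.32% at 36.5 dpp and 1.26% at D30.

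**Figure D1:**
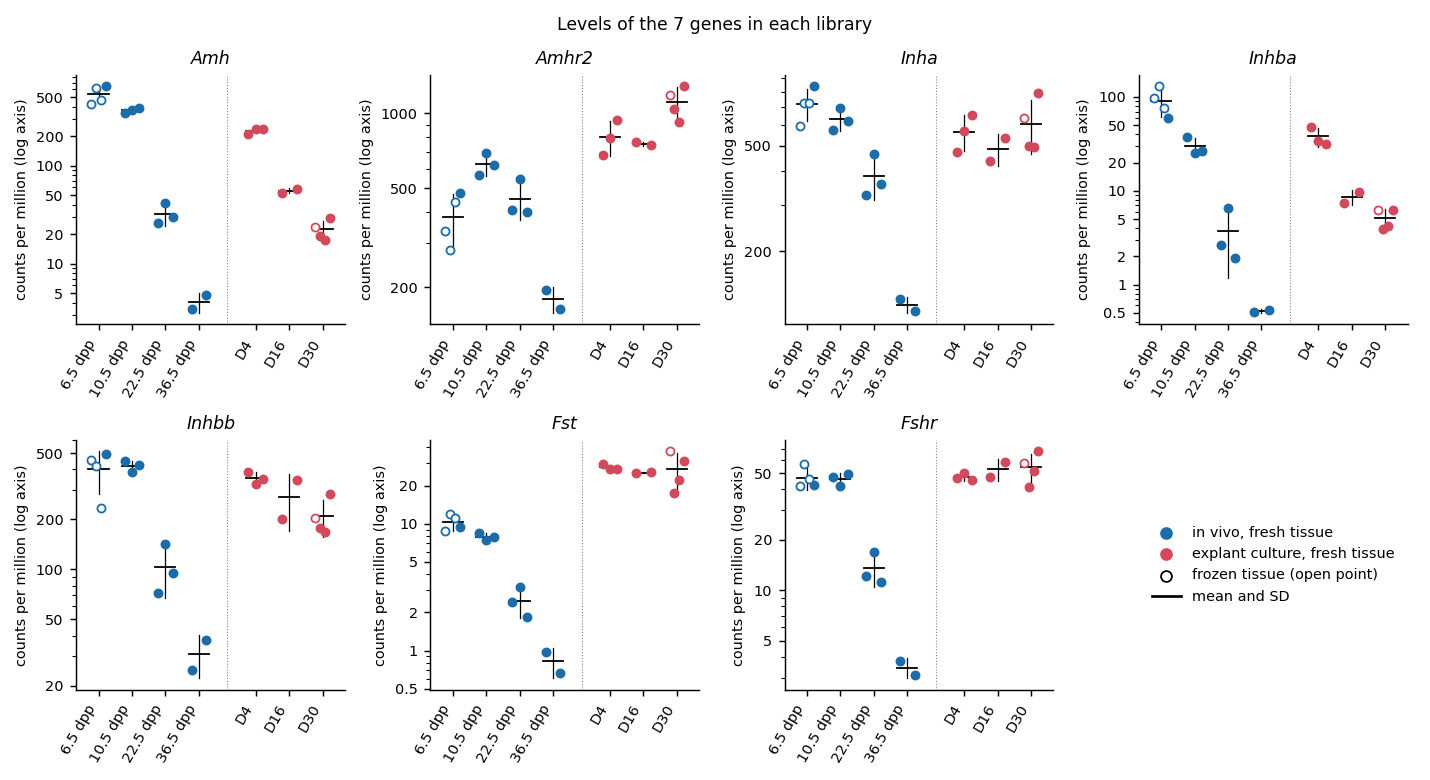
Level of each of the 7 genes in every library used, in CPM on a log axis, with in vivo ages at the left and culture days at the right of the dotted line; open points are CSF tissue, bars the mean and the vertical line the SD. Amh and Inhba go down in both series, whereas Fst and Fshr go down in vivo only and stay near their D4 level in culture.

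Amh, the hormone gene itself, fell at both late steps in vivo and at every step in culture. Its level at 6.5 dpp was 652 CPM in the fresh library and 430.5, 615 and 473 CPM in the CSF libraries. It was 348, 371 and 388 CPM at 10.5 dpp, 25.8, 41.2 and 30.0 CPM at 22.5 dpp, and 3.42 and 4.78 CPM at 36.5 dpp. The 4 in vivo ages did not overlap, and each later age lay below the one before. In culture Amh was at 211, 235 and 237 CPM at D4, at 53.1 and 57.6 CPM at D16, and at 19.2, 17.3, 28.9 and 23.8 CPM at D30. The culture days did not overlap each other either, and in the order of all group means only 22.5 dpp and D30 had overlapping ranges.

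Inha, the alpha subunit that makes a beta chain into an inhibin, varied less. It was at 841 CPM in the fresh and 595, 723 and 723 CPM in the CSF libraries at 6.5 dpp, at 573, 693 and 622 CPM at 10.5 dpp, at 327, 465 and 358 CPM at 22.5 dpp, and at 131 and 119 CPM at 36.5 dpp. In culture it was at 474, 569.7 and 653 CPM at D4, 439 and 535 CPM at D16, and 501, 496, 788 and 635 CPM at D30. Every neighbouring pair in the order of the group means overlapped down to 22.5 dpp, and only 36.5 dpp stood clear of the rest.

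Inhba, the beta A chain of activin A and inhibin A, had the widest range of group means of the 7 genes, 175-fold, against 132-fold for Amh and 5.74-fold for Inha. It was at 60.1 CPM in the fresh and 98.7, 131 and 76.3 CPM in the CSF libraries at 6.5 dpp, at 37.0, 25.3 and 26.8 CPM at 10.5 dpp, at 2.61, 6.62 and 1.93 CPM at 22.5 dpp, and at 0.505 and 0.540 CPM, or 17 and 21 reads, at 36.5 dpp. It was at 48.1, 34.2 and 31.5 CPM at D4, 7.49 and 9.81 CPM at D16, and 3.89, 4.21, 6.17 and 6.18 CPM at D30. Neighbours that overlapped were D4 with 10.5 dpp and D30 with 22.5 dpp.

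Inhbb, the beta B chain of activin B and inhibin B, was the more abundant beta chain per kilobase in every library. It was at 493 CPM in the fresh and 455, 419 and 235 CPM in the CSF libraries at 6.5 dpp, at 449, 387 and 424 CPM at 10.5 dpp, at 72.2, 142 and 94.8 CPM at 22.5 dpp, and at 24.7 and 37.4 CPM at 36.5 dpp. In culture it was at 389, 329 and 351 CPM at D4, 201 and 347 CPM at D16, and 177, 168, 283 and 205 CPM at D30. The lowest CSF library at 6.5 dpp lay within the D16 and D30 ranges, and the 22.5 and 36.5 dpp libraries lay below all others.

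Fst, the activin-binding protein, had the cultured and in vivo libraries used fully apart. In vivo it was at 9.42 CPM in the fresh and 8.76, 11.9 and 11.1 CPM in the CSF libraries at 6.5 dpp, at 8.53, 7.43 and 7.82 CPM at 10.5 dpp, at 2.43, 3.18 and 1.83 CPM at 22.5 dpp, and at 0.980 and 0.669 CPM, or 33 and 26 reads, at 36.5 dpp. In culture it was at 29.4, 27.3 and 27.2 CPM at D4, 25.2 and 25.5 CPM at D16, and 17.4, 22.2, 31.1 and 37.4 CPM at D30. The lowest cultured library thus lay above the highest in vivo library used. The set-aside 6.5 dpp library, at 18.7 CPM, lay above the lowest D30 library (17.4 CPM).

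Amhr2, the receptor of AMH, had its highest group means in culture. It was at 479.6 CPM in the fresh and 336, 283 and 439 CPM in the CSF libraries at 6.5 dpp, at 564, 692 and 622 CPM at 10.5 dpp, at 411, 543 and 403 CPM at 22.5 dpp, and at 194 and 164 CPM at 36.5 dpp. It was at 679.9, 794 and 939 CPM at D4, 764 and 745 CPM at D16, and 1039.8, 923, 1290.4 and 1189 CPM at D30. The ranges of D30 and D4 overlapped, as did those of D4 and D16, of D4 and 10.5 dpp, and of 22.5 and 6.5 dpp.

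Fshr, the receptor of FSH, was level at the young ages and through culture and low at the older ages. It was at 42.4 CPM in the fresh and 42.1, 56.8 and 45.8 CPM in the CSF libraries at 6.5 dpp, at 47.5, 42.0 and 49.1 CPM at 10.5 dpp, at 12.2, 17.0 and 11.3 CPM at 22.5 dpp, and at 3.77 and 3.11 CPM at 36.5 dpp. In culture it was at 47.0, 49.9 and 45.2 CPM at D4, 47.3 and 58.6 CPM at D16, and 41.5, 51.6, 67.6 and 57.2 CPM at D30. All neighbours in the order of the group means overlapped except at 22.5 and 36.5 dpp, which stood apart below.

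Changes were tested with edgeR over 19255 genes in 1 fit of all 21 libraries, and a gene was called at a Benjamini-Hochberg adjusted p below 0.05. Fold changes use TMM factors, which rest on the bulk of the genes, so they differ from ratios of the CPM above, most of all at 36.5 dpp. In these whole-tissue libraries, fewer Sertoli cells and less RNA of a gene per Sertoli cell cannot be told apart. RNA of these genes from other cells of the tissue cannot be set apart either. Scaling by library size alone moved the median of all genes by -0.51 on the log2 scale at 36.5 dpp against 22.5 dpp, by -0.74 against 6.5 dpp and by 0.64 at D30 against 36.5 dpp.

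The in vivo comparisons address how the genes change over the first wave of spermatogenesis. Between 6.5 and 10.5 dpp, 1 of the 7 genes was called, Inhba, which was 3.21-fold lower (log2 fold change -1.68 ± 0.33 SE, edgeR adjusted p = 0.0171), where 0.467% of all genes tested were called lower and 0.675% higher. Amh had a log2 fold change of -0.62 ± 0.18 SE (edgeR adjusted p = 0.125) and Amhr2 one of 0.63 ± 0.19 (edgeR adjusted p = 0.128), and DESeq2 called Amh (-0.65, adjusted p = 0.0155). The Inhba call was lost without CSF replicate 2 at 6.5 dpp (edgeR adjusted p = 0.0691), without replicate 2 (0.147) or 3 (0.108) at 10.5 dpp, in fresh tissue only (log2 fold change -1.04) and with the set-aside 6.5 dpp library added (0.333).

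Between 10.5 and 22.5 dpp, 5 of the 7 genes fell, where 27.9% of all genes tested fell and 33.6% rose. Amh fell most, 9.39-fold (log2 fold change -3.23 ± 0.21 SE, edgeR adjusted p = 1.29e-09), followed by Inhba at 6.66-fold (-2.74 ± 0.36, 5.24e-06), Inhbb at 3.37-fold (-1.75 ± 0.27, 2.53e-05), Fshr at 2.81-fold (-1.49 ± 0.18, 1.65e-06) and Fst at 2.62-fold (-1.39 ± 0.25, 0.000104). Inha had a log2 fold change of -0.43 (95% interval -0.82 to -0.04, edgeR adjusted p = 0.0508) and Amhr2 one of -0.18 (-0.61 to 0.24, 0.436). Inha passed without replicate 2 at 22.5 dpp (-0.52, edgeR adjusted p = 0.0395), without CSF replicate 1 (0.0426) or 3 (0.0405) at 6.5 dpp and without D30 replicate 3 (0.0365). With scaling by library size alone Inha passed as well (-0.71, edgeR adjusted p = 0.00554), and the share of higher genes among all called went from 54.6% to 43.8%. In all, Inha was called in 9 of 31 alternatives, as higher when scaled to the summed Sertoli cell markers described below.

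Between 22.5 and 36.5 dpp all 7 genes fell, where 27.5% of all genes tested fell and 23.3% rose. The log2 fold changes were -2.45 ± 0.24 SE for Amh, -2.28 ± 0.46 for Inhba, -1.45 ± 0.21 for Fshr, -1.19 ± 0.31 for Inhbb, -1.09 ± 0.21 for Inha, -1.08 ± 0.30 for Fst and -0.82 ± 0.23 for Amhr2, with edgeR adjusted p from 6.62e-07 (Amh) to 0.00693 (Amhr2). Only 2 libraries stand for 36.5 dpp: the calls of Amhr2 (edgeR adjusted p = 0.0611) and Fst (0.0805) were lost without replicate 2 and that of Inhbb (0.0704) without replicate 1. Amhr2 was also lost with the set-aside library added (edgeR adjusted p = 0.0556), and Amhr2 (0.0879) and Fst (0.0745) in a fit of the compared groups alone. The share of higher genes among all called was 45.9%, 27.9% by library size alone and 56.0% with RLE factors.

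Over the whole in vivo course, from 6.5 to 36.5 dpp, 6 of the 7 genes fell, where 37.9% of all genes tested fell and 39.7% rose. Inhba fell 104-fold (log2 fold change -6.70 ± 0.53 SE, edgeR adjusted p = 3.76e-09) and Amh 78.8-fold (-6.30 ± 0.29, 2.11e-11). Fshr fell 8.16-fold (-3.03 ± 0.22), Inhbb 7.61-fold (-2.93 ± 0.33), Fst 7.54-fold (-2.91 ± 0.31) and Inha 3.45-fold (-1.79 ± 0.21). Amhr2 had a log2 fold change of -0.37 (95% interval -0.83 to 0.08, edgeR adjusted p = 0.124), and by library size alone, where the share of higher genes among all called went from 51.2% to 38.7%, it passed as lower (-1.10, 0.000265). It also passed as lower in fresh tissue only (-0.66, edgeR adjusted p = 0.0222) and without CSF replicate 2 at 6.5 dpp (-0.51, 0.0337).

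The culture steps ask how the genes change once the tissue leaves the animal. From 6.5 dpp to D4, Fst rose 2.75-fold (log2 fold change 1.46 ± 0.22 SE, edgeR adjusted p = 0.00012) and Amhr2 2.11-fold (1.08 ± 0.19, 0.000482), while Inhba fell 2.36-fold (-1.24 ± 0.32, 0.0112) and Amh 2.34-fold (-1.23 ± 0.19, 0.000129). Of all genes tested 10.8% rose and 10.1% fell at this step. Inha (-0.33), Inhbb (-0.13) and Fshr (0.04) were not called. Scaled to the Sertoli cell markers described below, Amhr2 was not called, and Inha, Inhbb and Fshr were called lower. That scaling moved the median of all genes by -0.77 (marker mean) and -0.83 (marker sum) on the log2 scale. With the set-aside 6.5 dpp library added, Fst was still called (1.18, edgeR adjusted p = 0.0152), whereas Amh (-0.94, 0.202), Amhr2 (0.79, 0.0708) and Inhba (-0.93, 0.309) were not. In fresh tissue only, which leaves 1 library at 6.5 dpp, Amhr2 (edgeR adjusted p = 0.0754) and Inhba (0.606) were not called, and Inhba was not called without replicate 2 (0.0552) or 3 (0.0613) at D4.

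From D4 to D16 both Amh and Inhba fell again, Inhba 4.25-fold (log2 fold change -2.09 ± 0.41 SE, edgeR adjusted p = 0.000854) and Amh 3.97-fold (-1.99 ± 0.23, 3.41e-06), where 5.48% of all genes tested fell and 18.4% rose. The other 5 genes lay between -0.34 (Inhbb) and 0.21 (Fshr) and were not called. From D16 to D30 only Amh was called, 2.45-fold lower (-1.29 ± 0.20, edgeR adjusted p = 0.00372), where 0.332% of all genes tested fell and 1.46% rose. Inhba had a log2 fold change of -0.74 (95% interval -1.48 to 0.01, edgeR adjusted p = 0.434), and Amhr2 one of 0.58 (0.12 to 1.04, 0.247). The Amh call at D30 was lost without D16 replicate 2 (edgeR adjusted p = 0.0756) and in a fit of the compared groups alone (0.186). With the set-aside library added, the calls at D16 of Amh (edgeR adjusted p = 0.0573) and Inhba (0.0972) and that of Amh at D30 (0.488) were lost. Fst and Fshr had intervals of -0.42 to 0.63 and -0.33 to 0.45 over the same step.

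Culture was then set against the testis of the same age. At D4 against 10.5 dpp, Fst was called, 3.75-fold higher (log2 fold change 1.91 ± 0.24 SE, edgeR adjusted p = 5.27e-05), where 4.92% of all genes tested were higher and 3.18% lower. Amh had a log2 fold change of -0.61 (95% interval -1.02 to -0.20, edgeR adjusted p = 0.0611), and every D4 library lay below every 10.5 dpp library. Amh passed with RLE factors (edgeR adjusted p = 0.0468), in DESeq2 (0.0121), in a fit of the compared groups alone (0.000291, where Amhr2 also passed, 0.0115), and without CSF replicate 1 (0.0466) or 3 (0.0459) at 6.5 dpp or D30 replicate 3 (0.0443). Inha (-0.46 to 0.32), Inhbb (-0.70 to 0.40), Inhba (-0.26 to 1.15) and Fshr (-0.24 to 0.49) had 95% intervals that held 0, and Amhr2 had 0.02 to 0.87 (edgeR adjusted p = 0.227). By library size alone the share of higher genes among all called went from 60.7% to 50.1%.

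At D16 against 22.5 dpp, 5 of the 7 genes were higher in culture, where 14% of all genes tested were higher and 11.8% lower. Fst was 9.21-fold higher (log2 fold change 3.20 ± 0.27 SE, edgeR adjusted p = 8.5e-07) and Fshr 3.54-fold (1.82 ± 0.19, 6.67e-06). Inhbb was 2.41-fold higher (1.27 ± 0.29, edgeR adjusted p = 0.00551), Inhba 2.13-fold (1.09 ± 0.38, 0.0427) and Amh 1.55-fold (0.63 ± 0.21, 0.038). Amhr2 (0.59, 0.13 to 1.06, edgeR adjusted p = 0.0575) and Inha (0.20, -0.23 to 0.63, 0.491) were not called. The last 3 calls hung on few libraries: without D16 replicate 2 the edgeR adjusted p was 0.157 for Inhbb, 0.267 for Inhba and 0.216 for Amh. Amh was also lost without replicate 1 (edgeR adjusted p = 0.141) or 3 (0.103) at 22.5 dpp, D4 replicate 1 (0.05) or D16 replicate 1 (0.0743). Inhba was also lost without replicate 1 (edgeR adjusted p = 0.149) or 3 (0.159) at 22.5 dpp, replicate 2 (0.051) or 3 (0.0525) at 10.5 dpp, D4 replicate 2 (0.0525) or D16 replicate 1 (0.0505). With RLE factors Inhba (edgeR adjusted p = 0.0534) and Amh (0.0657) were not called, and the share of higher genes among all called went from 54.3% to 43.9%, or to 68.0% by library size alone. With the set-aside library added, Amh (edgeR adjusted p = 0.483) and Inhba (0.334) were not called, and in a fit of the compared groups alone Amh (0.0934), Inhba (0.175) and Inhbb (0.0586) were not. Amhr2 passed by library size alone (edgeR adjusted p = 0.0268), in fresh tissue only (0.0244), and without CSF replicate 2 (0.0415) or 3 (0.0329) at 6.5 dpp or replicate 2 at 22.5 dpp (0.0485).

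At D30 against 36.5 dpp all 7 genes were higher in culture, where 32.4% of all genes tested were higher and 35% lower. Fst was 21.0-fold higher (log2 fold change 4.39 ± 0.33 SE, edgeR adjusted p = 2.71e-08), Fshr 10.1-fold (3.34 ± 0.22, 1.09e-08) and Inhba 6.21-fold (2.64 ± 0.45, 7.8e-05). Inhbb was 4.27-fold higher (2.09 ± 0.31, edgeR adjusted p = 1.87e-05), Amhr2 3.97-fold (1.99 ± 0.24, 2.08e-06), Amh 3.46-fold (1.79 ± 0.23, 4.23e-06) and Inha 3.08-fold (1.62 ± 0.21, 5.32e-06). For each of the 7 genes the lowest D30 library lay above the higher 36.5 dpp library. By library size alone the share of higher genes among all called went from 48.0% to 65.8%.

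The signed log2 difference of cultured from age-matched tissue was higher at D30 than at D4 for all 7 genes. Of all genes tested it was higher for 25.8% and lower for 20.7%. A higher value can be a change from below to above 0, as for Amh (-0.61 at D4, 0.63 at D16 and 1.79 at D30). The signed difference rose by 3.21 ± 0.27 SE on the log2 scale for Fshr (edgeR adjusted p = 7.96e-07), 2.48 ± 0.37 for Fst, 2.40 ± 0.30 for Amh, 2.24 ± 0.40 for Inhbb, 2.19 ± 0.55 for Inhba, 1.69 ± 0.28 for Inha and 1.54 ± 0.30 for Amhr2 (0.000564). Between D4 and D16 it rose for 4 genes, where it rose for 5.26% of all genes tested and went down for 4.36%. These were Fshr (1.70 ± 0.26, edgeR adjusted p = 0.000883), Inhbb (1.42 ± 0.39, 0.0305), Fst (1.30 ± 0.35, 0.029) and Amh (1.24 ± 0.29, 0.0136). The calls of Inhbb and Fst at this earlier step were each lost without replicate 1 or 3 at 10.5 or 22.5 dpp, any of the 3 D4 libraries or D16 replicate 2 (edgeR adjusted p up to 0.226 and 0.0977), and that of Amh without D16 replicate 2 (0.0644). With the set-aside library added, Amh (edgeR adjusted p = 0.443), Inhbb (0.121) and Fst (0.19) were lost at the earlier step and Inhba (0.105) at D30. Under library size alone the share of higher signed differences among all genes called went from 55.5% to 78.9% at D30 and from 54.7% to 73.2% at D16.

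Frozen tissue was compared with fresh tissue at 6.5 dpp and D30 together. None of the 7 genes was called by edgeR, and none had an unadjusted p below 0.05 or was called by DESeq2, where 0% of all genes tested were called by edgeR, 6.55% had an unadjusted p below 0.05 and DESeq2 called 4 genes. The log2 fold changes of CSF against fresh tissue ran from -0.22 (Inhbb, 95% interval -0.76 to 0.32) to 0.58 (Inhba, -0.13 to 1.29). The comparison rests on 1 fresh library at 6.5 dpp and 1 CSF library at D30.

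Ratios within a library do not depend on its depth, and were taken from CPM per kilobase. Inhbb exceeded Inhba 7.17 ± 3.60-fold (SD, n = 4) at 6.5 dpp, 21.6 ± 3.00-fold (n = 3) at 10.5 dpp, 49.2 ± 21.8-fold (n = 3) at 22.5 dpp and 88.9 ± 21.6-fold (n = 2) at 36.5 dpp. In culture the ratio was 14.4 ± 2.29 (SD, n = 3) at D4, 46.7 ± 9.14 (n = 2) at D16 and 61.8 ± 8.88 (n = 4) at D30. The beta B chain thus gained on the beta A chain with age in both series, since Inhba fell further.

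Inha over the sum of both beta chains stood at 4.81 ± 1.73 (SD, n = 4) at 6.5 dpp and 4.17 ± 0.737 (n = 3) at 10.5 dpp, and at 10.9 ± 1.81 (n = 3) at 22.5 dpp and 12.1 ± 4.26 (n = 2) at 36.5 dpp. In culture it was 4.33 ± 0.953 (SD, n = 3) at D4, 5.26 ± 1.27 (n = 2) at D16 and 8.27 ± 0.367 (n = 4) at D30. Fst over the beta chains lay between 0.0156 and 0.0362 in all in vivo libraries used and between 0.0647 and 0.166 in all cultured libraries, with no overlap. Amh over Amhr2 went from 1.77 ± 0.579 (SD, n = 4) at 6.5 dpp to 0.0281 (n = 2) at 36.5 dpp, and from 0.343 (n = 3) at D4 to 0.0239 (n = 4) at D30. These are ratios of transcripts and not of hormone or receptor protein.

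**Figure D2:**
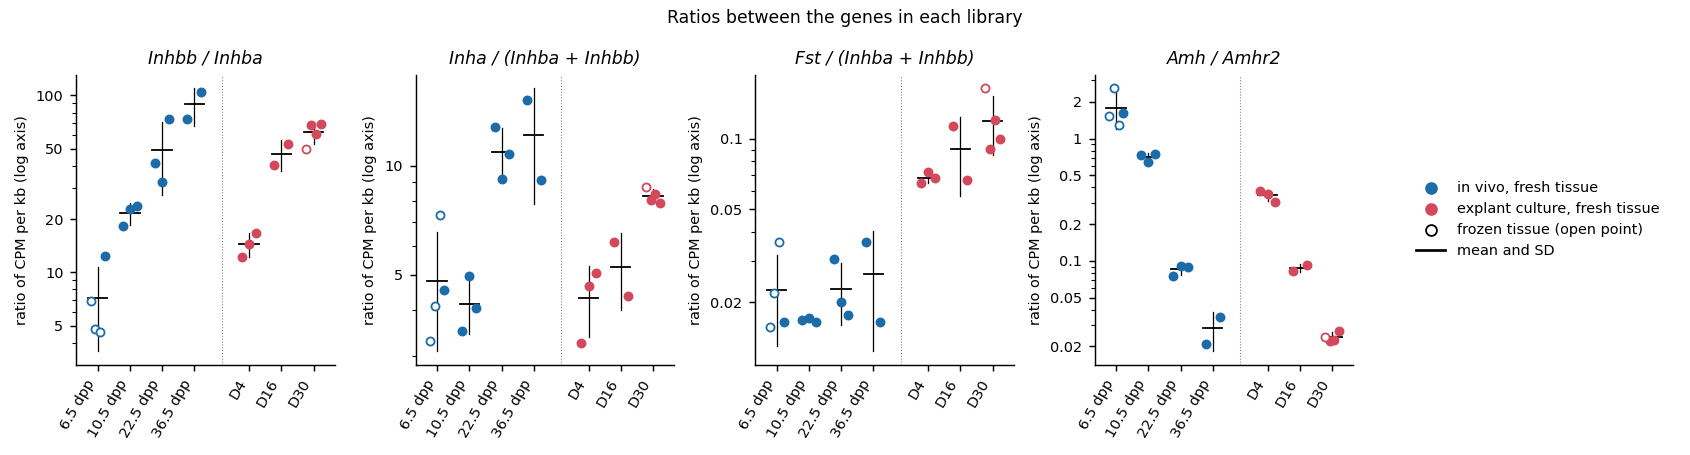
Ratios between the genes in every library used, from CPM per kilobase of exon on a log axis, with in vivo ages left and culture days right of the dotted line; open points are CSF tissue, bars the mean and vertical lines the SD. Inhbb over Inhba rises and Amh over Amhr2 falls in both series, and Fst over the beta chains is above 0.0647 in cultured and at or below 0.0362 in in vivo libraries.

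The levels of the Sertoli cell markers differed between groups, and not always in the same direction as the 7 genes. Their summed level, 5501 to 8010.1 CPM in 6.5 dpp libraries, was 8113 to 8546 CPM in those of 10.5 dpp, 2569.7 to 4307 CPM in those of 22.5 dpp and 1203 to 1353 CPM in those of 36.5 dpp. D4 libraries had 10864 to 12281 CPM, D16 libraries 8268 to 10569.7 CPM and D30 libraries 8008 to 12791 CPM. Clu, a secreted chaperone, gave 31.3% to 56.0% of that sum. From 6.5 dpp to D4 the markers did not move alike. Rhox5 (log2 fold change 3.82), Tsx (3.24), Trf (2.17), Cldn11 (1.74), Gata1 (1.72), Clu (1.62) and Wt1 (0.75) rose. Krt18 (-1.33) fell, and the remaining markers, such as Sox9 (0.29) and Vim (-0.04), were not called. A level relative to the markers is thus not a level per Sertoli cell. Of the 16 markers 12 fell and 3 rose from 6.5 to 36.5 dpp (median log2 fold change -2.20, against -0.01 over all genes), and 14 were higher and none lower at D30 than at 36.5 dpp (median 2.37, against -0.03). The fits were therefore repeated with each library scaled to the mean log2 level of the 16 markers, and with it scaled to their summed counts. This moved the median of all genes at D30 against 36.5 dpp by -1.86 and -2.29 on the log2 scale, and the share of higher genes among all called from 48.0% to 4.20% and 1.86%.

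Relative to the markers, Fst and Fshr were still higher at D30 than at 36.5 dpp under both scalings. Fst had a log2 fold change of 2.48 ± 0.29 SE by the marker mean and 2.04 ± 0.31 by the marker sum (edgeR adjusted p = 4.23e-07 and 6.6e-06), and Fshr 1.45 ± 0.22 and 1.01 ± 0.24 (6.86e-06 and 0.000855). The other 5 genes were no longer called higher: Amh had -0.09 and -0.52, Amhr2 0.11 and -0.33, Inha -0.26 and -0.71, Inhba 0.75 and 0.31, and Inhbb 0.21 and -0.22, with Amh (edgeR adjusted p = 0.0314) and Inha (0.00371) called lower by the sum only. At D16 against 22.5 dpp Fst was higher under both (2.32 and 1.87), Fshr by the mean only (0.92, edgeR adjusted p = 0.00244, and 0.48, 0.0813), and Inha was lower under both (-0.70 and -1.15). By the sum, Amh (-0.69, edgeR adjusted p = 0.0138) and Amhr2 (-0.74, 0.0161) were also lower at D16. At D4 against 10.5 dpp Fst was higher (1.40 and 1.35), and Amh (-1.11 and -1.16) and Inha (-0.57 and -0.62) were lower under both. The 2 scalings moved the median of all genes by -0.50 and -0.55 at D4 and by -0.90 and -1.34 at D16. The share of higher genes among all called went from 60.7% to 11.4% and 10.5% at D4, and from 54.3% to 5.51% and 1.93% at D16. With TMM factors Inha had -0.07 at D4 and 0.20 at D16, so its lower values are near this common shift.

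Over the in vivo course, Amh (-5.11 by the marker mean and -4.68 by the marker sum), Inhba (-5.56 and -5.13), Inhbb (-1.77 and -1.36), Fst (-1.72 and -1.26) and Fshr (-1.85 and -1.39) fell under both scalings. Amhr2 rose under both (0.84 and 1.31, edgeR adjusted p = 0.00136 and 3.74e-05), where it had -0.37 with TMM factors and was not called. The 2 scalings moved the median of all genes by 1.18 and 1.62 in this comparison. The share of higher genes among all called went from 51.2% to 76.6% and 85.1%, so the rise of Amhr2 is not particular to it. Inha fell by the mean (-0.58, edgeR adjusted p = 0.00742) and was not called by the sum (-0.13, 0.598). The part of the number of Sertoli cells in these changes was not tested.

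Step by step in vivo, Amh and Inhba fell relative to the markers at all 3 steps under both scalings, Amh already between 6.5 and 10.5 dpp (-0.87 by the mean and -0.88 by the sum, edgeR adjusted p = 0.0139 and 0.0319). Between 10.5 and 22.5 dpp Inhbb also fell under both (-1.20 and -0.75), whereas Fshr (-0.91 and -0.46, edgeR adjusted p = 0.000459 and 0.0727) and Fst (-0.81 and -0.35, 0.00625 and 0.239) fell by the mean only. By the sum, Amhr2 (0.86, edgeR adjusted p = 0.0027) and Inha (0.60, 0.0132) rose at this step, and by the mean they had 0.41 and 0.15 and were not called. The median of all genes moved by 0.59 by the mean and by 1.05 by the sum at this step. The share of higher genes among all called went from 54.6% to 78.3% and 91.5%. Between 22.5 and 36.5 dpp Fshr was called by the mean only (-0.59, edgeR adjusted p = 0.0341), and Inha, Inhbb, Fst and Amhr2 were called under neither scaling. The median of all genes moved by -0.27 under both scalings between 6.5 and 10.5 dpp, and by 0.85 under both between 22.5 and 36.5 dpp.

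From 6.5 dpp to D4 Amh (-1.98 and -2.05), Inhba (-2.04 and -2.12), Inha (-1.08 and -1.14, edgeR adjusted p = 5.5e-05 and 0.000166) and Fshr (-0.72 and -0.79, 0.00256 and 0.00398) fell relative to the markers under both scalings, as did Inhbb (-0.92 by the mean, with edgeR adjusted p = 0.00491 and 0.0048). Fst rose under both (0.70 and 0.64), and Amhr2 was called under neither (0.33 and 0.29, edgeR adjusted p = 0.143 and 0.241). The 2 scalings moved the median of all genes by -0.77 and -0.83 at this step. The share of higher genes among all called went from 51.6% to 6.26% and 5.39%. With TMM factors Inha had -0.33, Inhbb -0.13 and Fshr 0.04, so the falls of Inhbb and Fshr are near this common shift.

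**Figure D3:**
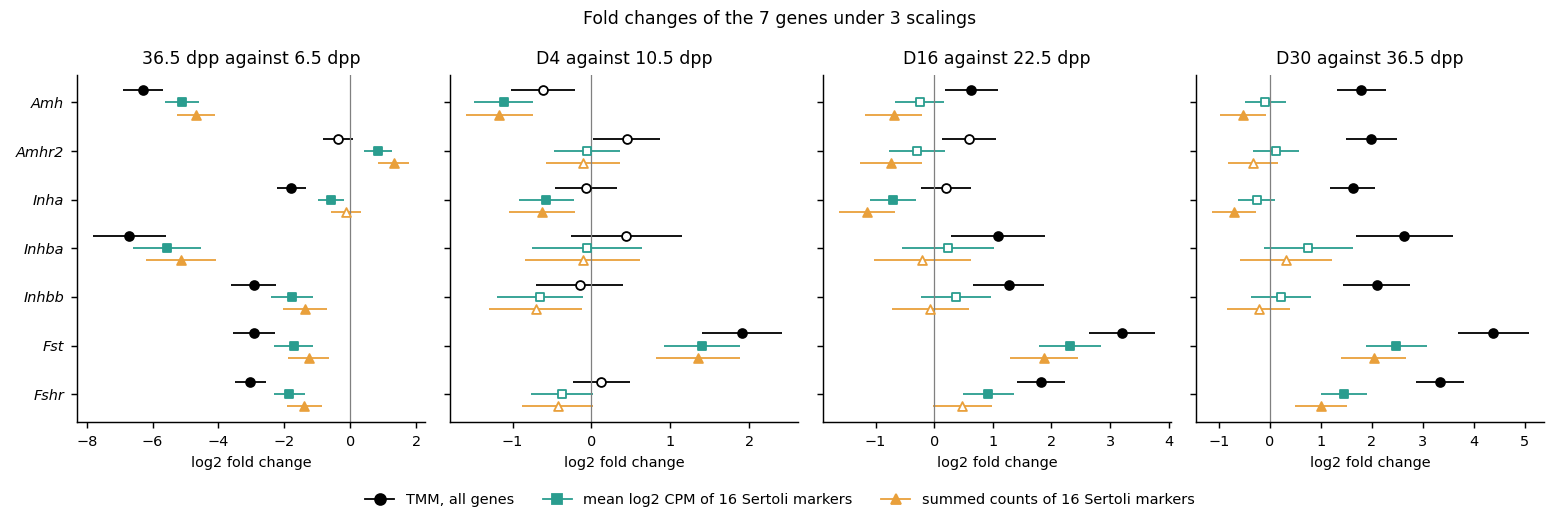
Log2 fold changes of the 7 genes in 4 comparisons with TMM factors (circles), scaled to the mean of the 16 Sertoli markers (squares) and to their sum (triangles); lines are 95% intervals and filled marks have an adjusted p below 0.05. At D30 against 36.5 dpp Fst and Fshr are above 0 under the 3 scalings, whereas the other genes are called higher with TMM factors only, with Amh and Inha below 0 under both marker scalings.

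The other genes of the pathway were taken from fixed lists. Among other ligands and binding proteins of the family, 12 of 19 genes had enough reads to test. The counts of this and the following lists stand beside shares over all genes tested of 32.4% higher and 35% lower at D30 against 36.5 dpp, 14% and 11.8% at D16 against 22.5 dpp, 4.92% and 3.18% at D4 against 10.5 dpp, and 39.7% and 37.9% at 36.5 against 6.5 dpp. At D30 against 36.5 dpp 8 of them were higher, 3 lower and 1 not called (median log2 fold change 1.35, against -0.03 over all genes). Bmp2 (4.17), Tgfb2 (3.15) and the follistatin relative Fstl3 (2.90) were among the higher genes, and Bmp8b (-3.03), Lefty2 (-2.45) and Gdf9 (-1.69) were lower. Against 22.5 dpp, 6 were higher at D16 and 6 not called (median 0.59, against -0.08), and at D4 against 10.5 dpp Fstl3 (1.06) and Tgfb1 (1.06) were higher and 10 not called. From 6.5 to 36.5 dpp 8 fell, 3 rose and 1 was not called (median -1.97), with Bmp2 (-4.45) and Fstl1 (-4.19) lowest.

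Among 14 receptors and co-receptors, 7 were higher, 1 lower and 6 not called at D30 against 36.5 dpp (median log2 fold change 0.58, against -0.03 over all genes, of which 32.4% were higher and 35% lower). Bmpr2, a type II receptor of bone morphogenetic proteins, had 2.59 and Tgfbr2, that of TGF-beta, 2.32. Of the type II receptors of activin, Acvr2b had 0.67 and was called, and Acvr2a had -0.27 and was not. Tgfbr3l, a co-receptor of inhibin B, was lower (-0.92). Against 22.5 dpp, Tgfbr2 (1.61) and Bmpr1a (0.75) were higher at D16 and 12 were not called (median 0.12, against -0.08 over all genes, of which 14% were higher), and at D4 against 10.5 dpp Tgfbr2 was higher (0.95), Acvr2b lower (-0.68) and 12 were not called. Over the in vivo course 8 fell and 6 were not called (median -1.43), with Igsf1 (-3.31) and Bmpr2 (-2.87) lowest.

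All 8 SMAD genes were tested, and at D30 against 36.5 dpp 5 were higher, 2 lower and 1 not called (median log2 fold change 0.72, against -0.03 over all genes, of which 32.4% were higher and 35% lower). Smad3, which carries the activin signal, had 2.84 and the inhibitory Smad7 2.42, whereas the inhibitory Smad6 had -2.40 and Smad9, which carries bone morphogenetic protein and AMH signals, -1.31. When D16 was compared with 22.5 dpp, 4 were higher, 1 lower (Smad1, -0.52) and 3 not called, where 14% of all genes were higher and 11.8% lower, and at D4 against 10.5 dpp none of the 8 was called. From 6.5 to 36.5 dpp 5 fell, 2 rose and 1 was not called, with Smad7 at -4.56 and Smad9 at 2.54.

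For the FSH signal and gonadotropins, 14 of 17 genes were tested. At D30 against 36.5 dpp 7 were higher, 2 lower and 5 not called (median log2 fold change 0.50, against -0.03 over all genes, of which 32.4% were higher and 35% lower). Adcy9, an adenylyl cyclase, had 1.68 and Prkacb, a catalytic subunit of protein kinase A, 1.46. Crem, a transcription factor of spermatids, had -2.27 and Lhcgr, the Leydig cell receptor of luteinizing hormone, -1.45. In D16 explants Gnas (0.82), Prkacb (0.65) and Arrb2 (0.64) were higher than at 22.5 dpp and 11 were not called, where 14% of all genes were higher, and at D4 against 10.5 dpp Prkar2b was lower (-0.78) and 13 were not called. From 6.5 to 36.5 dpp 8 fell, 3 rose and 3 were not called, with Crem at 4.84.

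Of 9 transcription regulators known to act on the Amh gene, all 9 fell from 6.5 to 36.5 dpp (median log2 fold change -2.32) and all 9 were higher at D30 than at 36.5 dpp (median 2.22). Sox9, the factor that starts Amh transcription in the fetal testis, had -2.87 and 2.76, and Gata4 had -3.28 and 2.42. At D16 against 22.5 dpp 7 were higher, with Sox9 at 1.78, and 2 were not called, and at D4 against 10.5 dpp Nr0b1 was higher (0.87) and 8 were not called. From 6.5 dpp to D4, Wt1 (0.75) and Nr0b1 (1.22) rose, Dmrt1 (-0.66) fell and the others, with Sox9 at 0.29, were not called. The regulators were not called from D4 to D16 (Sox9 -0.49, Gata4 -0.46) or from D16 to D30 (Sox9 0.09, Gata4 -0.13). Amh fell at each of these culture steps (-1.23, -1.99 and -1.29). The part of the regulators in the course of Amh was not tested. Sox9 and Wt1 are also among the Sertoli markers and Dmrt1 among the markers of spermatogonia.

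**Figure D4:**
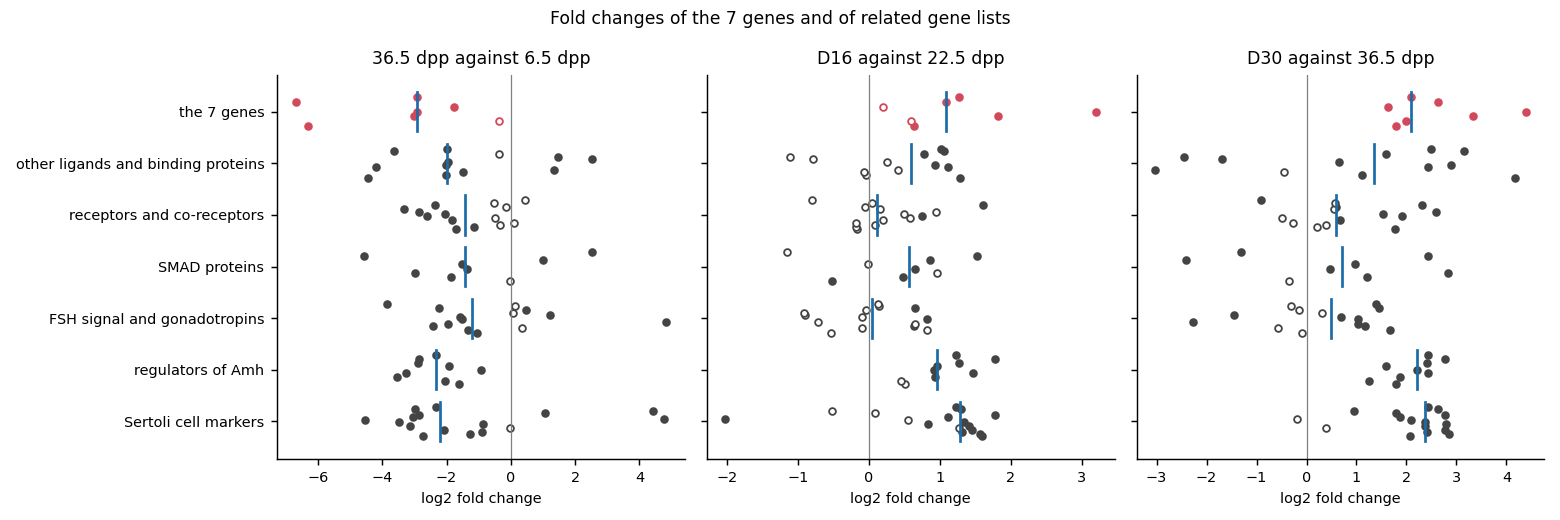
Log2 fold change of each tested gene (points, filled where the adjusted p is below 0.05) in the 7 genes, 5 lists of related genes and 16 Sertoli cell markers, for 3 comparisons; vertical bars are medians and the heights of points within a row carry no value. At D30 against 36.5 dpp the medians are 2.09 for the 7 genes, 2.22 for the regulators of Amh and 2.37 for the Sertoli cell markers.

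Markers of the other cells in the tissue also differed between groups. At D30 against 36.5 dpp all 8 Leydig cell markers (336 to 630.2 CPM summed at D30 and 1687 to 2128 at 36.5 dpp) and all 8 spermatid markers (494 to 2203 and 20357 to 25965 CPM) were lower. Of 7 spermatocyte markers 2 were lower, of 7 spermatogonia markers 4 were higher, and higher were also 4 of 5 peritubular myoid markers, 3 of 4 endothelial markers (with 1 lower) and 3 of 4 macrophage markers. From 6.5 to 36.5 dpp all 8 spermatid and all 7 spermatocyte markers and 6 of 8 Leydig cell markers rose, 5 of 7 spermatogonia, 5 of 5 peritubular myoid and 3 of 4 endothelial markers fell, and 2 of 4 macrophage markers rose. No marker of these lists was at 0 in any group, and their part in the changes of the 7 genes was not tested.

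Genes with the most similar course to each member were ranked by Pearson's r of log2(CPM + 0.5) over the 21 libraries, which fall into 7 groups, so that high values are common. For Amh they were Gpc3 (0.992), Tcl1 (0.988) and Gars (0.988), and for Amhr2 Slc25a18 (0.968), Gata1 (0.964), which is a Sertoli marker, and Tapbp (0.962). For Inha they were Atpsckmt (0.975), Alg2 (0.972) and Rnf215 (0.970), for Inhba Vcan (0.989), Efna5 (0.983) and Ednra (0.983), and for Inhbb Snx18, Ajuba and Elk4 (each 0.993). For Fst they included Igfbp3 (0.975) and F3 (0.975), and for Fshr they were Slc18b1 (0.993), Gpkow (0.988) and Slc35g1 (0.986).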

How the data were processed

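RNA-seq libraries of mouse testis and testis explants were analysed from 1 deposited table of raw counts per gene. Per the labels' processing notes, reads were converted with bcl2fastq 2.17.1.14, aligned to GRCm38 (mm10) with STAR 2.7.3a and counted with HTSeq 0.12.4, and DESeq2 is named without a version. The counts had not been normalized by the authors. The strand setting of the counting is not given in the sources used here.

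Gene identifiers were matched to symbols through RefSeq. Levels are CPM of the library total, and per kilobase of exon for comparisons between genes. Differential expression was tested in R 4.3.3 with edgeR 4.0.16 (TMM factors, filterByExpr, the quasi-likelihood F test and adjustment by Benjamini and Hochberg over 19255 genes) in 1 fit with 7 groups and CSF joined to fresh tissue of the same stage. The freezing fit had a term for stage and a term for state. Intervals are at 95%. The scripts were tested on simulated data. Figures were drawn with matplotlib 3.10.9.

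The genes named are the 7 members, the genes of the lists and, per member, the 3 genes of highest correlation, apart from some that are not reported here. Members and lists were chosen with earlier results of these data known. Alternatives were DESeq2 1.42.0, RLE factors, library size alone, no filter, fresh tissue only, the compared groups only, a replicate block, the stricter threshold of the volcano plots, the set-aside library added back, scaling to summed Sertoli cell markers and leaving out each library. Scaling to the mean of the markers was added after the data were seen.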

Additional observations from a re-analysis of the deposited data

Results flagged for a closer look

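The difference between cultured tissue and the testis of the same age was tested for a change with culture time, as a difference of differences in edgeR. From D4 to D16 the signed difference rose on the log2 scale by 1.24 for Amh (edgeR adjusted p = 0.0136), 1.42 for Inhbb (0.0305), 1.30 for Fst (0.029) and 1.70 for Fshr (0.000883). For Amh it went from below to above 0 (-0.61 at D4 and 0.63 at D16). From D4 to D30 the signed difference rose by 2.40 for Amh, 1.54 for Amhr2, 1.69 for Inha, 2.19 for Inhba, 2.24 for Inhbb, 2.48 for Fst and 3.21 for Fshr. Both sets use the same D4 and 10.5 dpp libraries.

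The summed level of the Sertoli cell markers was 10864 to 12281 CPM at D4 and 8008 to 12791 CPM at D30, against 8113 to 8546 CPM at 10.5 dpp and 1203 to 1353 CPM at 36.5 dpp. With libraries scaled to the mean of these markers, the change to D30 was called for Amh (1.02), Fst (1.08) and Fshr (1.83), and the change to D16 for Fshr (1.30). With libraries scaled to their sum, the change to D30 was called for Fshr (1.44) and the change to D16 for none of the 7 genes.

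In 14 sets of 4 libraries, the 7 genes at 6.5 dpp and at D30, none held an outlying library by Dixon's criterion.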

How the results depend on the processing

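Of the alternative estimates of single genes, none that was called with TMM factors or under the alternative changed sign other than by scaling to Sertoli cell markers, and 54 of 2814 changed sign with neither side called, 28 of them by other alternatives. Scaled to the summed markers, the log2 fold change reversed for Amhr2 (0.86) and Inha (0.60) at 22.5 against 10.5 dpp, for Amhr2 at 36.5 against 22.5 dpp (0.054) and against 6.5 dpp (1.31), and for Fshr at D4 against 6.5 dpp (-0.79). It also reversed at D16 against 22.5 dpp for Amh (-0.69), Amhr2 (-0.74), Inha (-1.15), Inhba (-0.20) and Inhbb (-0.071), at D30 against 36.5 dpp for Amh (-0.52), Amhr2 (-0.33), Inha (-0.71) and Inhbb (-0.22), and in the change of the culture difference from D4 to D30 for Amhr2 (-0.22) and Inha (-0.088). Scaled to the mean of the markers it reversed for Amhr2 at 36.5 against 22.5 dpp (0.043) and against 6.5 dpp (0.84), Fshr at D4 against 6.5 dpp (-0.72), Amh (-0.25) and Inha (-0.70) at D16, and Amh (-0.089) and Inha (-0.26) at D30. The cause was not tested beyond this scaling, which moves every gene by the same amount in a library.

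Counts of the 7 genes called moved as follows, with the cause not tested. These counts, and those below with single libraries left out, join higher and lower calls. They stand without the share of all genes called at each setting, so they do not set the 7 genes apart from other genes. At the volcano threshold (a log2 fold change of 2 and an adjusted p of 0.001) they were 0 at 10.5 against 6.5 dpp, 2 at 22.5 against 10.5 dpp, 2 at 36.5 against 22.5 dpp, 0 at D4 against 6.5 dpp, 1 at D16 against D4, 0 at D30 against D16, 0 at D4 against 10.5 dpp, 1 at D16 against 22.5 dpp, 4 at D30 against 36.5 dpp, and 0 and 4 for the change of the culture difference to D16 and D30. Scaled to summed markers they were 2 at 10.5 against 6.5 dpp, 2 at 36.5 against 22.5 dpp, 3 at D4 against 10.5 dpp (Fst higher, Amh and Inha lower), 4 at D30 against 36.5 dpp (Fst and Fshr higher, Amh and Inha lower), and 0 and 1 for the change to D16 and D30. Scaled to the marker mean they were 2, 3, 3, 2, 1 and 3 in that order, and 3 at D16 against 22.5 dpp. DESeq2 called 2 genes at 10.5 against 6.5 dpp and 2 at D4 against 10.5 dpp, and RLE factors 2 at D4 against 10.5 dpp and 3 at D16 against 22.5 dpp. With the set-aside 6.5 dpp library added, which raised the spread of that group, the counts were 0 at 10.5 against 6.5 dpp, 1 at D4 against 6.5 dpp, 0 at D16 against D4, 0 at D30 against D16, 3 at D16 against 22.5 dpp and 1 for the change to D16. In fresh tissue only they were 0 at 10.5 and 2 at D4 against 6.5 dpp. In fits of the compared groups alone they were 0 at 10.5 against 6.5 dpp, 0 at D30 against D16, 3 at D4 against 10.5 dpp and 2 at D16 against 22.5 dpp.

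Leaving out 1 library at a time gave 0 to 1 genes at 10.5 against 6.5 dpp, 0 to 1 at D30 against D16, 1 to 2 at D4 against 10.5 dpp, 2 to 6 at D16 against 22.5 dpp and 1 to 4 for the change to D16. With 2 libraries in a group, the lone library left was assumed to vary like the other groups. Same-numbered libraries did not deviate together (15 of 52 pairs had r over 0.1, from -0.58 to 0.66), so the numbers do not pair the samples; a fit with a replicate block called 2 genes at D4 against 10.5 dpp, where Amh passed (edgeR adjusted p = 0.0479), and also gained Inha at 22.5 against 10.5 dpp (0.0366) and Amhr2 at D16 against 22.5 dpp (0.0496) and lost Inhba at D16 against 22.5 dpp (0.0607). Depth limits Inhba and Fst at 36.5 dpp, where Inhba rests on 17 and 21 reads and Fst on 33 and 26.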
